A study of Mus musculus with 8 samples.

Results

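Genes for the motors that walk on microtubules, the myosins that walk on actin, and the tubulins that build the microtubules themselves were examined in mouse N2a cells after knockdown of Grp94. A row of the deposited table (a transcript cluster, the set of array probes assigned to one locus) was taken when any of its gene symbols started with Kif, Klc, Dync, Dynl, Dctn, Tuba, Tubb or Tubg, or with Myo or Myh followed by a digit. Kif11, Kif20a and Kif23, kinesins of cell division, were left out by this rule, and 0 of these 3 genes were listed. This gave 23 of the 2395 rows of the table, standing for 20 genes, without counting the pseudogene Tubb2a-ps2.

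N2a is a mouse neuroblastoma line, and Grp94, encoded by Hsp90b1, is the HSP90 chaperone of the endoplasmic reticulum. The cells had been transfected with RNAi expression vectors, and total RNA was hybridised to 8 arrays. The control group, labelled Vector knockdown, held 4 arrays, and the Grp94 knockdown group held 4 arrays. Both groups were the same cell line and both had gone through transfection, so the control cells carried a vector too. The study's methods describe transient transfection, more than one Grp94 construct, and both an empty and a non-targeting control vector. Which of these was used for a given array is not in the labels.

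The table holds the authors' mean of each group on a log2 scale, with each row centred near 0, and no value for a single array. All values below are therefore the authors' means over 4 arrays, without an SD, and every difference is the knockdown mean minus the vector mean on the log2 scale. No test of a difference could be run from 2 means. Every listed row had already passed the authors' own limit of 0.01 on the adjusted p, so the counts below describe direction and size among rows that were selected on this same contrast. A gene that is not in the table was not listed, which does not show that it did not differ. Because rows are centred, levels cannot be compared between genes.

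Kinesins carry cargo mostly toward the plus ends of microtubules, which in axons means away from the cell body, and cytoplasmic dynein with its cofactor dynactin carries cargo back. Microtubules are polymers of alpha and beta tubulin, nucleated by gamma tubulin in a ring complex. Myosins use actin filaments, with the Myh class forming bipolar filaments and the unconventional myosins serving membranes, organelles and cell protrusions.

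The targeted gene was lower in the knockdown. Hsp90b1 had a mean of 0.74 in the vector arrays and -0.78 in the knockdown arrays, a difference of -1.52 or 2.87-fold, over 37 probes. Neuronal marker genes were partly listed: 4 of 10 were in the table, all lower, where 59.9% of all rows were lower. Elavl4 was at -0.22, Gap43 at -0.20, Stmn2 at -0.17 and Map2 at -0.17, near the median of all rows, -0.16. Of 6 markers of sympathetic neuroblastoma 3 were listed, Th at -0.12, Hand2 at 0.26 and Dbh at 0.49. None of 6 glial markers and none of 6 fibroblast, endothelial and blood markers were listed. Among all protein-coding genes of RefSeq, 10.3% were listed. A set of 6 markers with none listed therefore says nothing about whether such cells were present. The identity of the cells could not be checked by marker level, since centred means keep no level, and the part these markers play in the results below was not tested. In bulk RNA, fewer cells of a kind and less RNA per cell cannot be told apart.

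Most of the motor and tubulin rows were lower after Grp94 knockdown, and the differences were small. Of the 23 rows, 19 were lower (82.6%) and 4 were higher (17.4%). Of all 2395 rows, 59.9% were lower and 40.1% were higher. The median difference of the 23 rows was -0.19 (1.14-fold), beside -0.16 (1.12-fold) over all 2395 rows. Subtracting that table median from every row (re-centring) left 14 member rows lower (60.9%) and 9 higher (39.1%), with a median of -0.029, where all rows are by construction at 50% in each direction. The table median is that of rows the authors selected and is not a value of no change, so a sign after re-centring says only whether a row lay under or over that median.

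Few members moved far. Past a fold change of 1.3 (0.38 on the log2 scale) there were 2 lower rows, Kif5a and Tubb2a (8.7%), where the table as a whole had 16.1%. In the other direction 1 member row passed that size, a short Dync1li2 row (4.35%), beside 6.26% of all rows. At a fold change of 1.2 there were 8 lower members (34.8%) and 2 higher (8.7%), against 31.8% and 14.8% of the table. At 1.5-fold there were 0 members in either direction, against 5.34% and 1.42% of the table. Lower members had a median of -0.24, beside -0.28 for all lower rows, and higher members one of 0.26, beside 0.22 for all higher rows.

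**Figure D1:**
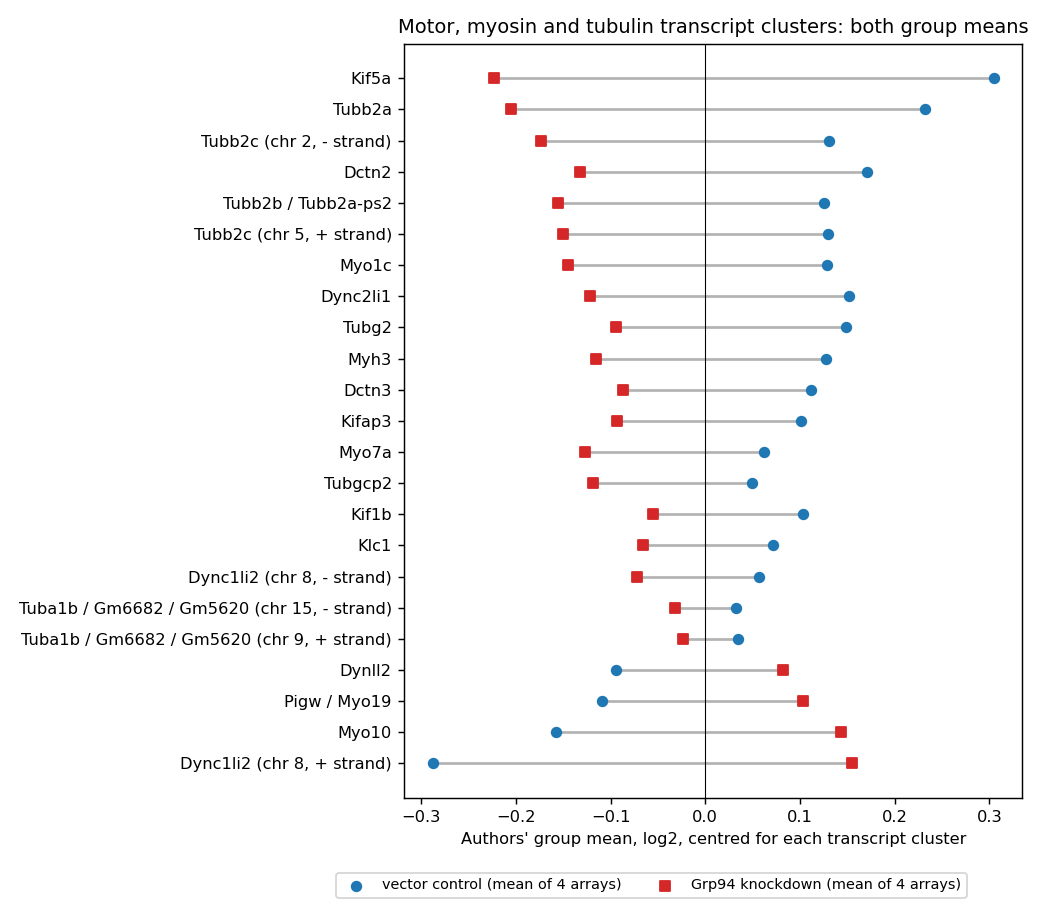
The authors' 2 group means of each of the 23 rows are plotted on the centred log2 scale (horizontal axis), circles for the vector control and squares for the Grp94 knockdown, each a mean of 4 arrays with no error available. In 19 rows the knockdown square lies left of the vector circle, with the widest gap in Kif5a (-0.53), and in the 4 lowest rows of the plot it lies to the right.

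The promoters of 5 members are printed: the beta tubulins Tubb2a and Tubb4b and the dynactin subunits Dctn2 and Dctn3, lower side by side, and Myo10, the highest myosin. Each runs from 250 bases before to 50 bases after a start site, from RefSeq on GRCm38.p6, and capitals mark CCAAT on either strand, written as CCAAT or ATTGG, the box bound by the factor NF-Y. They are Tubb2a (chr13:34077959-34078258, minus strand), Tubb4b (chr2:25224653-25224952, minus strand), Dctn2 (chr10:127266012-127266311, plus strand), Dctn3 (chr4:41723114-41723413, minus strand) and the upstream window of Myo10 (chr15:25622300-25622599, plus strand).
Tubb2a: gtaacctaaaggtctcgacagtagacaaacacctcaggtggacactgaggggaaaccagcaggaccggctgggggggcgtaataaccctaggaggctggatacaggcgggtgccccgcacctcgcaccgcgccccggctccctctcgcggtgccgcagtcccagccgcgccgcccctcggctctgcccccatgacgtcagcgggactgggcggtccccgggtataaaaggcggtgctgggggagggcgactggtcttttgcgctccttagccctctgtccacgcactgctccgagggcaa
Tubb4b: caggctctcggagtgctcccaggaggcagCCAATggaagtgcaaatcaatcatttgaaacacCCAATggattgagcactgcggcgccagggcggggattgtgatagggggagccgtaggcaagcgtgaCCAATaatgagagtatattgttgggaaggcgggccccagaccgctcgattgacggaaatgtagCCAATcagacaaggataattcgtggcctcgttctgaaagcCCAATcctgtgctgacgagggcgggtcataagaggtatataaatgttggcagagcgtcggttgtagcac
Dctn2: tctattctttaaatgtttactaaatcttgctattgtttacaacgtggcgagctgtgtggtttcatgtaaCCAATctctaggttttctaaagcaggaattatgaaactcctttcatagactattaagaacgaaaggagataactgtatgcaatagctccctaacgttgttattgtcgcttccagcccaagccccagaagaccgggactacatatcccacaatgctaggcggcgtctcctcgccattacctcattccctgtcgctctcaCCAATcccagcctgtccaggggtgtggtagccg
Dctn3: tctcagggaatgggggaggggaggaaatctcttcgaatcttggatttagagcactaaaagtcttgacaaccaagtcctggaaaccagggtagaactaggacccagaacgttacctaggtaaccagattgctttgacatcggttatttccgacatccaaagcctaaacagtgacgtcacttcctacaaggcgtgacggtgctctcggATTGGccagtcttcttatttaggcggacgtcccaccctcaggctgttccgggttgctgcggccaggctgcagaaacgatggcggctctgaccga
Myo10: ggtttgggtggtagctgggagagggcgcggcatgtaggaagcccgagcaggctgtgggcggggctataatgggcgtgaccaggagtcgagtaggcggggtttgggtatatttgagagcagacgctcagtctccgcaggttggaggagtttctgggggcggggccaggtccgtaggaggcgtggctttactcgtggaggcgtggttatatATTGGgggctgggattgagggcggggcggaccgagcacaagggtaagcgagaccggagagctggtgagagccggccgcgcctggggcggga

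Tubb4b held 5 CCAAT matches, a number reached or passed by 0.271% of 32851 RefSeq promoters of this length. Dctn2 held 2, and 11.7% of all promoters held at least 2. Dctn3 and this Myo10 window held 1 each, and Tubb2a, the tubulin with the largest difference, held 0. The other Myo10 window, not printed, held 0 as well. A window was found for 14 of the 20 genes, 19 windows in all, and none for Kif5a and Dync1li2, which had the largest differences in each direction. CCAAT was in 7 of the 19 windows (36.8%), beside 37.4% of all promoters. ACGTG on either strand, part of the sites of several stress and hypoxia factors, was in 3 of the 19 (15.8%), beside 19.6%. Both shares of windows are near those of all promoters. Some genes have several windows, and those of Kif1b overlap. By gene, CCAAT was in 6 of 14 (42.9%) and ACGTG in 3 of 14 (21.4%). The shares of all promoters count windows and not genes, so these shares by gene have no like background here. Of the higher genes, Myo10 carried CCAAT in the printed window only and Myo19 held 0, while Dync1li2 and Dynll2 had no window. Whether CCAAT goes with direction was not tested. A match is a description of these letters and does not show that a factor binds.

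All 3 rows named Kif and the Klc1 row were lower, where 59.9% of all rows were lower. Kif5a, the neuronal heavy chain of conventional kinesin, had the largest difference of all 23 rows. Its mean was 0.31 in the vector arrays and -0.22 in the knockdown arrays, a difference of -0.53 or 1.44-fold over 29 probes, which placed it at position 174 of 2395 from the lowest. Kifap3, the subunit that links the heterotrimeric kinesin to cargo, had means of 0.10 and -0.09, a difference of -0.19 (1.14-fold). Kif1b, a kinesin that moves mitochondria and synaptic vesicle precursors, had means of 0.10 and -0.06, a difference of -0.16 (1.12-fold). Klc1, the light chain through which conventional kinesin binds cargo, had means of 0.07 and -0.07, a difference of -0.14 (1.10-fold). Relative to the table's median Kif5a was at -0.36, whereas Kif1b and Klc1 were less far below 0 than that median and came out at 0.0061 and 0.028. A protein that binds kinesins, Kifbp, was listed under an older name that the rule does not match, at -0.19 (1.14-fold).

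The Kif5a row covers more of the chromosome than the gene. As deposited it spans 207477 bases on the minus strand of chromosome 10 (126662752 to 126870228, genome build not stated in the table), 5.10 times the length of Kif5a in the RefSeq gene table. It takes in 3 other listed rows, all of them lower: Dctn2 at -0.30, the row shared by Ddit3 and Mars at -0.34, both on the plus strand, and Mars at -0.17 on the minus strand. Ddit3 encodes the stress factor CHOP and Mars the cytosolic methionyl-tRNA synthetase. Which of the 29 probes of the Kif5a row lie in Kif5a itself was not known here.

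**Figure D2:**
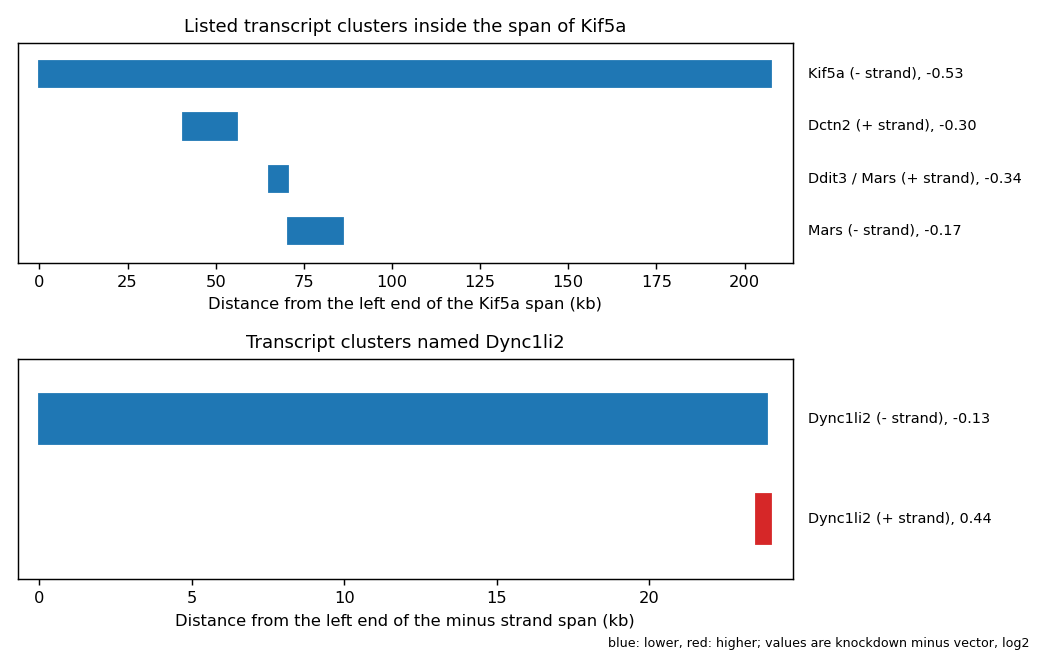
Overlapping rows are drawn as bars along the distance in kb from the left end of the longest one (horizontal axis), with the Kif5a span above and Dync1li2 underneath, blue where the knockdown was lower and red where it was higher, and with each row's strand and log2 difference. The 4 rows of the Kif5a span were all lower, from -0.53 to -0.17, and the 2 Dync1li2 rows had opposite signs.

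Rows named for dynein chains went both ways. Dync2li1, a light intermediate chain of the ciliary dynein, had means of 0.15 and -0.12, a difference of -0.27 (1.21-fold). Dynll2, a small light chain shared by dynein and other complexes, had means of -0.09 and 0.08, a difference of 0.18 (1.13-fold) upward. Dync1li2, which ties cytoplasmic dynein to adaptor proteins, was the only symbol of the set on rows in both directions, and these rows lie on opposite strands. Its longer row, on the minus strand of chromosome 8 (106943029 to 106966905, 23877 bases, 27 probes), had means of 0.06 and -0.07, a difference of -0.13 (1.09-fold). Its shorter row, on the plus strand (106966518 to 106967021, 504 bases, 25 probes), had means of -0.29 and 0.16, a difference of 0.44 (1.36-fold). The longer row spans 0.94 times the length of Dync1li2 in the RefSeq gene table, and the shorter row 0.020 times. The rows overlap by 388 bases at the right-hand end of the longer one and lie 0.57 apart in difference. One symbol thus stands for a row that was slightly lower and a row on the opposite strand that was the highest of all 23. Which transcript the plus-strand probes measured was not tested, and without that row 0 members passed 1.3-fold upward. Relative to the table's median the longer row was at 0.035, and 3 of the 4 dynein rows lay above that median.

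Both listed dynactin subunits were lower, and both lay below the table's median. Dctn2, or dynamitin, had means of 0.17 and -0.13, a difference of -0.30 (1.23-fold), and Dctn3, a small subunit of the shoulder of the complex, had means of 0.11 and -0.09, a difference of -0.20 (1.15-fold). Dctn2 lies inside the span of the Kif5a row, on the other strand. Dctn1, the large subunit that binds microtubules, was not listed, and neither was Dync1h1, the dynein heavy chain.

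All 7 tubulin rows were lower in the authors' means, where 59.9% of all rows were lower, with a median of -0.28 and a range from -0.44 to -0.06. They stand for 5 genes, and 3 of the rows lie off the chromosome of the named gene. Relative to the table's median 5 rows lay below and 2 above, the latter being both Tuba1b rows. Tubb2a, a beta tubulin abundant in neurons whose promoter window held no CCAAT, had means of 0.23 and -0.20, a difference of -0.44 (1.35-fold) over 16 probes, the fewest of any member. The beta tubulin now called Tubb4b, listed as Tubb2c and with the most CCAAT matches of the windows found, had a row on chromosome 2 with means of 0.13 and -0.17, a difference of -0.30 (1.23-fold). A second Tubb2c row, on chromosome 5, had means of 0.13 and -0.15, a difference of -0.28 (1.21-fold). The rows differ by 0.03, and RefSeq places a Tubb4b pseudogene on chromosome 5, so the second row is uncertain as a separate measurement: near-identical copies can share probe signal. The row for Tubb2b and Tubb2a-ps2, on chromosome 12 where RefSeq has the pseudogene and not Tubb2b, had means of 0.13 and -0.16, a difference of -0.28 (1.21-fold), and it is uncertain in the same way.

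Tubulins outside the beta group differed less. Tuba1b, a major alpha tubulin, was listed on 2 rows that also carry Gm6682 and Gm5620. The row on chromosome 15, over 54 probes, had means of 0.03 and -0.03, a difference of -0.06 (1.05-fold). The row on chromosome 9, over 33 probes and away from the gene, had means of 0.03 and -0.02, a difference of -0.06 (1.04-fold). These were the smallest differences of the 23 rows, and the rows lay at 0.10 and 0.11 relative to the table's median. Tubg2, a gamma tubulin, had means of 0.15 and -0.09, a difference of -0.24 (1.18-fold). Tubgcp2, a core protein of the gamma tubulin ring, had means of 0.05 and -0.12, a difference of -0.17 (1.12-fold).

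The unconventional myosins had 2 rows lower and 2 higher, one of the higher ones shared with Pigw, and without that row 2 were lower and 1 higher. Myo1c, which links membranes to actin, had means of 0.13 and -0.15, a difference of -0.27 (1.21-fold). Myo7a, known from hair cells and retina, had means of 0.06 and -0.13, a difference of -0.19 (1.14-fold). Myo10, which travels to the tips of filopodia, had means of -0.16 and 0.14, a difference of 0.30 (1.23-fold), the highest of the members after the short Dync1li2 row. The row shared by Pigw and Myo19 had means of -0.11 and 0.10, a difference of 0.21 (1.16-fold). Myo19 is a mitochondrial myosin and Pigw an enzyme of GPI anchor synthesis. That row is on the minus strand, as Pigw is in RefSeq, and Myo19 is on the plus strand. It spans 0.13 times the length of Myo19, so its value cannot be assigned to Myo19. Myh3, the embryonic skeletal muscle heavy chain, was the one filament-forming myosin listed, with means of 0.13 and -0.11, a difference of -0.24 (1.18-fold).

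**Figure D3:**
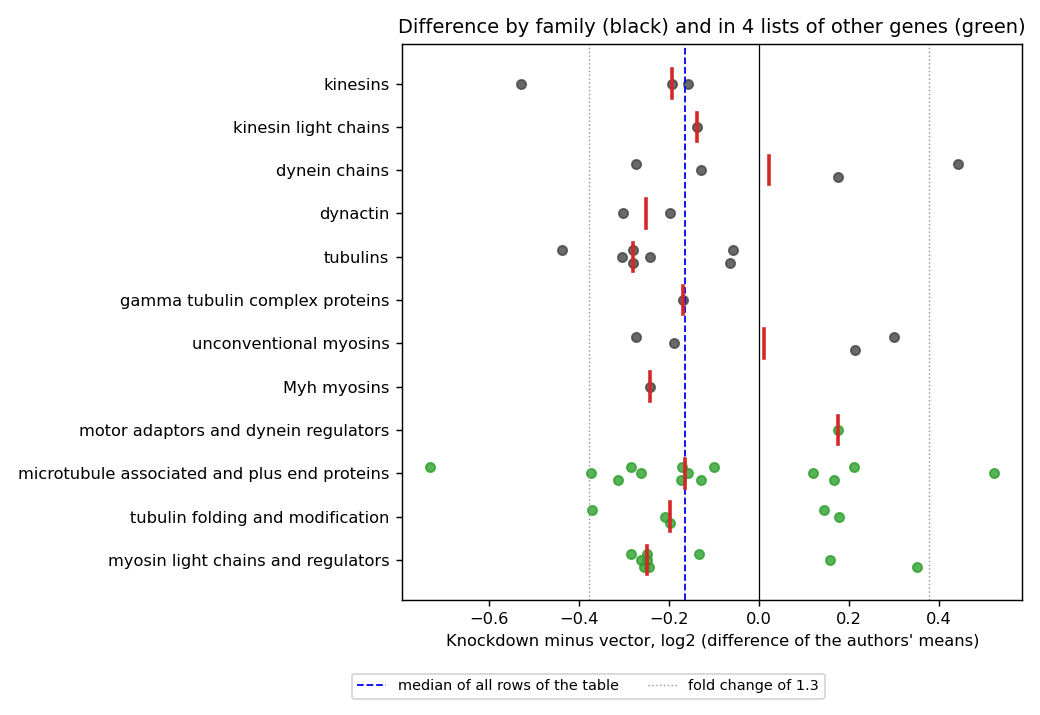
Each point is the log2 difference, knockdown minus vector, of one row (horizontal axis), grouped by family of the members (black) and by 4 lists of related genes (green), with red bars at group medians. All 7 tubulin points, from 5 genes and with 3 rows off the chromosome of the named gene, lie below 0. The dynein and unconventional myosin points lie on both sides, one of the 2 higher myosin points being the row shared by Pigw and Myo19.

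Coverage of the families in the table was partial. The RefSeq gene table holds 132 protein-coding genes of these families, of which 21 were listed (15.9%, Kifbp included), beside 2246 of 21900 protein-coding genes (10.3%). By family 4 of 44 genes named Kif, 1 of 4 kinesin light chains, 3 of 16 dynein genes, 2 of 6 dynactin genes and 5 of 18 tubulins were listed. The 4 genes named Kif were Kif5a, Kif1b, the cargo-linking subunit Kifap3, and Kifbp, which binds kinesins. For the remaining families the counts were 1 of 5 gamma tubulin complex genes, 4 of 25 unconventional myosins and 1 of 14 Myh genes. These counts include Tubb2b, whose only row lies off its chromosome, and Myo19, whose only row is on the strand of Pigw. Among the 111 not listed were Kif5b, Kif5c, Kif1a, Kif3a, Kif3b, Klc2, Tubb3, Tubb5, Tuba1a, Tubg1, Myh9, Myh10, Myo5a and Myo6. Whether a gene that is not listed was on the array and above the authors' expression limit was not known here.

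**Figure D4:**
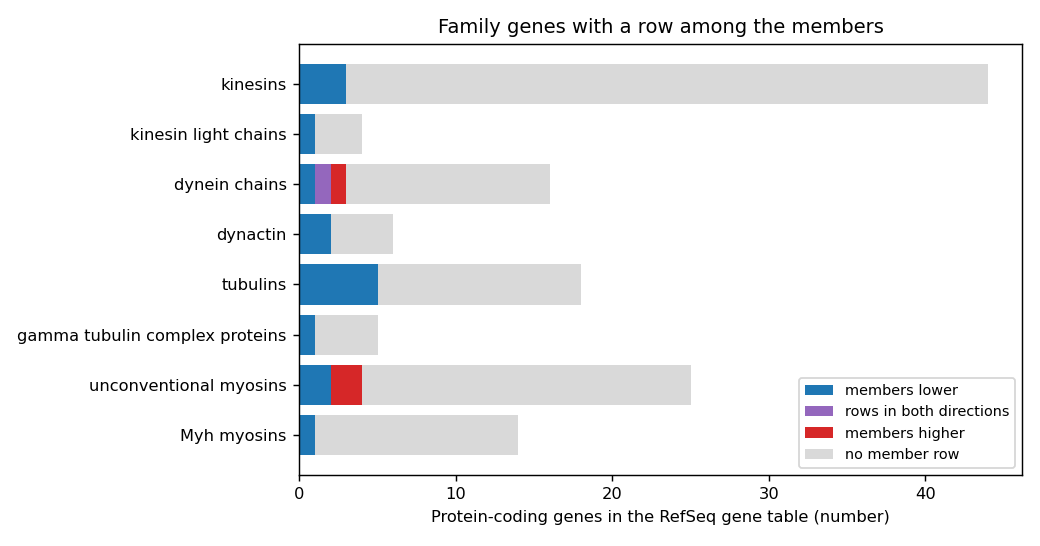
Bars give the number of protein-coding genes of each family in the RefSeq gene table (horizontal axis), coloured by the direction of the genes with a member row and grey for the rest, Kifbp included. Genes with a member row are the smaller share in all 8 families, such as 5 of 18 tubulins and 2 of 6 dynactin genes. Tubb2b and Myo19 are counted although their only rows cannot be assigned to them with certainty.

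Other genes of the microtubule and actomyosin system gave a wider range. Of 145 such genes 24 were listed, on 29 rows, of which 20 were lower and 9 higher, with a median of -0.17. That median is near the one of the table as a whole, -0.16, where 59.9% of rows were lower. Of the 29 rows 6, all lower, were those of 1 gene, Myl6. For comparison, 10.3% of all protein-coding genes in the RefSeq gene table were listed. Microtubule-associated and plus-end proteins had 14 of 46 genes listed, 10 lower and 4 higher, with a median of -0.16. Mapt, which encodes tau, was the lowest of the 29 rows, with a mean of 0.37 in the vector arrays and -0.36 in the knockdown arrays, a difference of -0.73 (1.66-fold), larger in size than that of any motor or tubulin. Dclk1, a doublecortin-like kinase that binds microtubules, was at -0.37. Fign, a microtubule-severing enzyme, was the highest, with means of -0.24 and 0.28, a difference of 0.52 (1.44-fold), and Clip3 was at 0.21.

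Tubulin folding and modifying genes had 5 of 41 listed, 3 lower and 2 higher. The row shared by Tbce, a folding cofactor, and B3galnt2 was at -0.37, and Agbl5, a carboxypeptidase that trims glutamates from tubulin, was at -0.21. Ttll4, which adds glutamates, was at 0.18 and Tbca, a folding cofactor, at 0.15. Of 31 motor adaptors and dynein regulators 1 was listed, Nde1, a dynein regulator, at 0.18. The myosin light chains and regulators had 4 of 27 genes on 9 rows, 7 lower and 2 higher. Myl6, the essential light chain of non-muscle myosin, supplied 6 of those rows, from -0.28 to -0.24, all but one of them away from the gene's own chromosome, so they are uncertain as separate measurements. Myl9, a regulatory light chain, was at 0.35 and Actn1, an actin crosslinker, at 0.16.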

How the data were processed

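Total RNA from transfected N2a cells was hybridised to Affymetrix Mouse Gene 1.0 ST arrays (8 arrays, 4 per group). The authors normalised the arrays in GeneSpring GX, left out genes under the 20th percentile of expression and deposited, for 2395 transcript clusters, 1 log2 mean per group, centred for each cluster. Values per array were not analysed here. The deposited columns of fold changes, p-values and q-values hold the authors' own comparison and were not used, except that q-values were read to see that 0 rows exceeded 0.01.

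The difference was the knockdown mean minus the vector mean, and no test was run. Counts in each direction, counts past a fold change and medians were given beside those of all rows. Symbols were matched to RefSeq genes and promoters (GRCm38.p6) by Entrez number or symbol, with no coordinates moved between builds. Every member was named with its difference, with both means for Hsp90b1, members past 1.3-fold, genes with more than 1 row and the 2 largest in each direction of each family. From the other lists the 2 largest in each direction were named, the others being given as counts. A gene of these lists was left out of names and counts and is not reported here. Members and gene lists were chosen with earlier results of these data known. Alternatives were re-centring, other fold changes, 1 row per symbol and changes to the member rule. Counting, the symbol rule and the motif search were tested on small constructed inputs with known answers. Python 3.11.15, numpy 2.4.6, pandas 2.3.3 and matplotlib 3.10.9 were used. The number of arrays limits the precision, which cannot be given without values per array.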

Additional observations from a re-analysis of the deposited data

How the results depend on the processing

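Subtracting the median of all rows, -0.16, from each difference moved the higher count to 9, the median to -0.029, and the count past 1.3-fold to 0 lower and 2 higher, where 6.64% of all rows were lower and 22% higher at that size. The shift is the same for every row, so it turns the sign of those between 0 and that median and tests nothing further. Values with a turned sign were Kif1b (0.0061), Klc1 and the kinesin light chain median (0.028), the longer Dync1li2 row (0.035), both Tuba1b rows (0.10 and 0.11) and Th (0.042). At 1.2-fold 8 members were lower and 2 higher, and at 1.5-fold there were 0 and 0. With rows on the named gene's own chromosome and without the short Dync1li2 row, an alternative chosen after seeing the data, 16 rows were lower and 3 higher, and 0 passed 1.3-fold upward. With 1 row per symbol, the one with the largest difference in size, 16 were lower and 4 higher. For Dync1li2 this kept the short row and dropped the longer, lower one. With 1-symbol rows the counts were 16 and 3, and without Tubgcp2 18 and 4. No paired analysis was possible because the table used here holds group means, and leaving out a replicate was not run for the same reason, since values per array were not analysed here. Selection on the same contrast, the unstated spread between arrays and probes shared between gene copies limit every value above.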
